A study of Homo sapiens with 18 samples.

Results

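Transfer RNA (tRNA) genes are described here across peak lists of A549 cells, an established human lung adenocarcinoma line. The members are all genes of biotype tRNA on chromosomes 1 to 22 and X in the RefSeq gene table of GRCh38.p14, 443 of the 59098 genes on those chromosomes. A gene was held by a list if a peak overlapped the gene or the 1 kb to either side of it. The assay was CUT&Tag, in which an antibody on chromatin directs a transposase that cuts and tags the DNA nearby. The groups were wild-type cells (WT), cells with YTHDF1 knocked out (YTHDF1-KO) and cells in which ARID1A was knocked down by siRNA (siARID1A), each profiled with an antibody against YTHDF1 and an antibody against ARID1A, with 2 libraries per group and 12 lists in all. The labels name no clone of the knockout and do not tell if the replicates came from different cultures, and the spread behind each p-value may therefore be only technical. The samples hold no group given a control siRNA, so the knockdown and the siRNA treatment as such cannot be told apart. The 6 IgG libraries were not analysed here.

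YTHDF1 binds RNA that carries N6-methyladenosine and is known mainly from the cytoplasm. ARID1A is a subunit of the BAF chromatin remodelling complex. tRNA genes are short and are transcribed by RNA polymerase III from promoter elements that lie inside the gene, the A box and the B box, which the factor TFIIIC binds before TFIIIB places the polymerase. The human genome holds many copies of most tRNAs, gathered in clusters, and in a given cell type only some of the copies are active. A symbol such as TRR-ACG2-1 gives the amino acid as 1 letter (R, arginine), the anticodon (ACG), a number for the mature sequence and a number for the copy, so that TRR-ACG2-1 and TRR-ACG2-2 encode the same tRNA at different places.

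Of the tRNA genes, 14 lay whole inside the promoter window of a neighbouring gene in the RefSeq promoter table of GRCh38.p14, which allowed their sequence to be read. In 12 of these the B box (the letters GGTTC, then any base, A, any 2 bases and CC, searched on both strands) was found on 1 strand only and the anticodon at its place before it. By comparison 296 of all 35116 promoter windows, 0.843%, held those letters on either strand. The genes below were picked, with their values known, to show that genes fitting this B box pattern stood at opposite ends of the data. At its open places the letters differed between the genes held by 12 lists and those held by none. The anticodon and the B box are in capitals, and the strand is the one that reads as tRNA. TRR-ACG2-1 (chr3:45688999-45689071, minus strand), TRG-CCC2-2 (chr16:636736-636806, minus) and TRP-TGG3-2 (chr14:20684016-20684087, plus) were held by all 12 lists, and TRP-TGG3-5 (chr16:3188094-3188165, plus) by 11. TRI-AAT8-1 (chr6:27668583-27668656, plus) was held by all 6 anti-ARID1A lists and no anti-YTHDF1 list. TRA-AGC2-2 (chr6:28863685-28863756, minus) and TRL-AAG2-2 (chr6:28943622-28943703, minus) were held by none.
TRR-ACG2-1: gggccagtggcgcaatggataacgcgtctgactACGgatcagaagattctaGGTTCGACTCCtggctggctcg
TRG-CCC2-2: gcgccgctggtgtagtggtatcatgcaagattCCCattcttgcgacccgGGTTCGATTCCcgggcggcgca
TRP-TGG3-2: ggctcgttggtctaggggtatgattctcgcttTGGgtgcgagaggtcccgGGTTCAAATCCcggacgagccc
TRP-TGG3-5: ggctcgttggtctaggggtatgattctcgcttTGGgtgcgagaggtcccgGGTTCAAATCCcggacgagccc
TRI-AAT8-1: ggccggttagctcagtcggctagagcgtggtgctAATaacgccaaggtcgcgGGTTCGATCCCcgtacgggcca
TRA-AGC2-2: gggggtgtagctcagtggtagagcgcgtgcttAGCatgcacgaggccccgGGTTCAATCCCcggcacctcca
TRL-AAG2-2: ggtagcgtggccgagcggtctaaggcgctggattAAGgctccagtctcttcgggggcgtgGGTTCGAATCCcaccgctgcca

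Both proline genes, TRP-TGG3-2 and TRP-TGG3-5, were identical at 72 of 72 bases although they lie on different chromosomes. The 2 genes in which those letters were not found were TRT-TGT6-1, held by 12 lists, and TRI-TAT2-2, held by 1. Reads from inside identical copies cannot be told apart by sequence. The treatment of reads with several possible places is not stated in any source used here, and a window of 1 kb reaches into flanking DNA that differs between copies.

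tRNA genes were held more often with the antibody against ARID1A than with that against YTHDF1, in every condition. The anti-YTHDF1 lists held 171 and 156 tRNA genes in WT, 143 and 140 in YTHDF1-KO and 196 and 203 in siARID1A cells. The anti-ARID1A lists held 307 and 314 in WT, 306 and 317 in YTHDF1-KO and 271 and 278 in siARID1A cells. No anti-YTHDF1 list reached any anti-ARID1A list, and within each antibody the siARID1A libraries lay outside the range of the other 4. As shares of the 443 genes these were 36.9% ± 2.39, 31.9% ± 0.479 and 45.0% ± 1.12 with anti-YTHDF1 and 70.1% ± 1.12, 70.3% ± 1.76 and 62.0% ± 1.12 with anti-ARID1A, in the order WT, YTHDF1-KO and siARID1A (mean ± SD, n = 2 each).

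The lists differed in size. Anti-YTHDF1 lists had 40562 to 59632 peaks covering 49.3 to 89.6 Mb, and anti-ARID1A lists 71271 to 106882 peaks covering 99.0 to 266 Mb. Over all genes, whose windows are mostly far longer, the shares held were 33.7% ± 3.91, 32.6% ± 1.26 and 37.2% ± 0.796 with anti-YTHDF1 and 51.4% ± 1.8, 51.8% ± 0.385 and 43.9% ± 1.76 with anti-ARID1A (n = 2 each, same order). Over the 6542 other genes of 200 bp or less, which have windows of like length, they were lower, with 11.4% to 15.9% of genes in the anti-YTHDF1 lists and 18.5% to 29.1% in the anti-ARID1A lists. tRNA genes were thus held more often than other short genes in each of the 12 lists. When each list was cut to its 40562 peaks of highest signal, the anti-ARID1A lists still held 56.2% to 58.2% of tRNA genes and the anti-YTHDF1 lists 30.2% to 42.7%. At that length the anti-ARID1A lists of siARID1A cells, at 56.2% and 56.4%, lay just below the WT lists at 58.0% and 58.2%, and level with the YTHDF1-KO lists at 56.4% and 56.9%. Sequencing depth is unknown here.

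**Figure D1:**
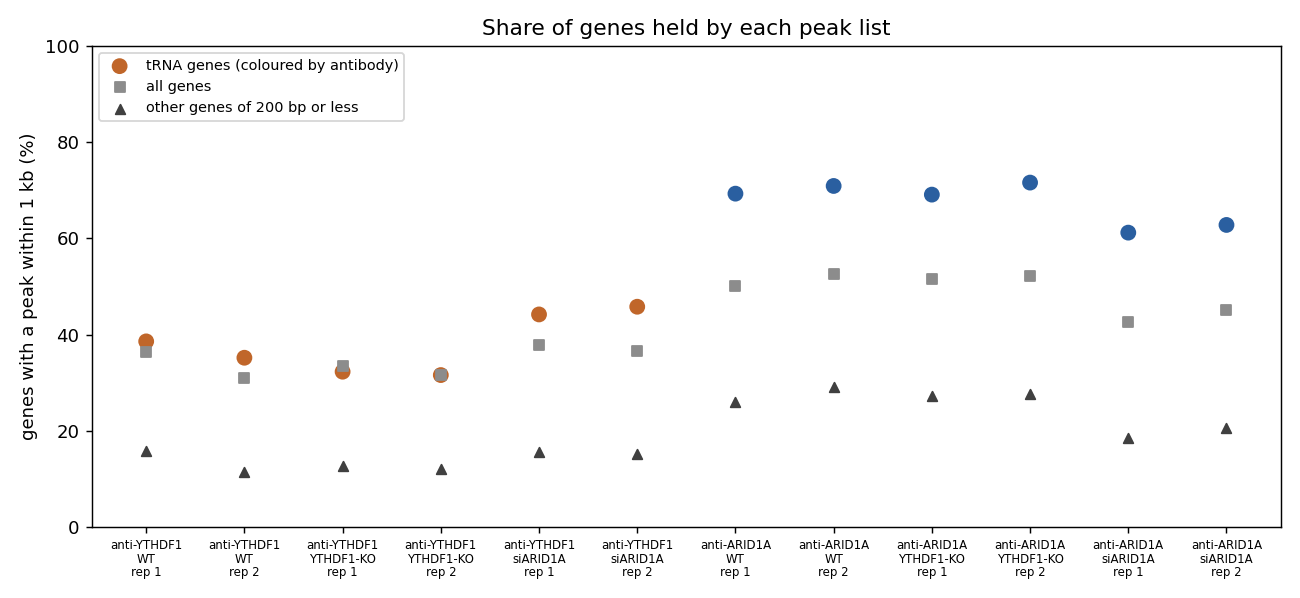
Share of genes with a peak within 1 kb (vertical axis, %) in each of the 12 peak lists (horizontal axis), for tRNA genes (circles, coloured by antibody), all genes (squares) and other genes of 200 bp or less (triangles). The tRNA circles lie between 31.6% and 45.8% with anti-YTHDF1 and between 61.2% and 71.6% with anti-ARID1A, above the triangles in every list.

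Counted by gene, peaks at tRNA genes were among the taller ones of their lists. The genes held rested on 88 to 128 different peaks in an anti-YTHDF1 list and 183 to 211 in an anti-ARID1A list. Tall shared peaks therefore counted more than once. Heights and lengths of peaks at other genes were not drawn up for comparison, and a longer peak overlaps a window more readily. The authors' highest signal of the peak had a median percentile within the list of 75.7 to 89.8 over the tRNA genes held by each anti-YTHDF1 list, and of 85.0 to 88.2 in the anti-ARID1A lists. The peaks were also longer than most, with medians of 1348 to 1922 bp against 1055 to 1262 bp for whole anti-YTHDF1 lists, and of 2215 to 3721 bp against 1104 to 1754 bp for whole anti-ARID1A lists. Most of the peaks covered the gene itself (64.3% to 81.9% of the tRNA genes held with anti-YTHDF1, 86.0% to 94.9% with anti-ARID1A). The place of highest signal was a median of 509 to 760 bp from the middle of the gene with anti-YTHDF1 and 430 to 634 bp with anti-ARID1A, and it lay over the gene itself in 7.88% to 20.3% and 6.62% to 9.96% of the genes held.

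Peak cover rose towards the gene in every list. With anti-YTHDF1 the middle of the gene was covered in 19.0% to 33.9% of tRNA genes, 1.82 to 2.35 times the mean cover at 5 to 10 kb on either side. With anti-ARID1A it was covered in 50.8% to 66.4%, 1.87 to 2.71 times the flanks. The highest ratios with anti-ARID1A were those of the siARID1A libraries, at 2.71 and 2.39, where the cover at the gene (50.8% and 54.0%) and that of the flanks (18.8% and 22.6%) were both the lowest of the 6 lists. Of the tRNA genes, 90 lay within 1 kb of a protein-coding gene, and these were held more often (46.7% to 67.8% with anti-YTHDF1, 81.1% to 88.9% with anti-ARID1A) than the other 353 (26.3% to 40.2% and 56.1% to 67.1%).

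**Figure D2:**
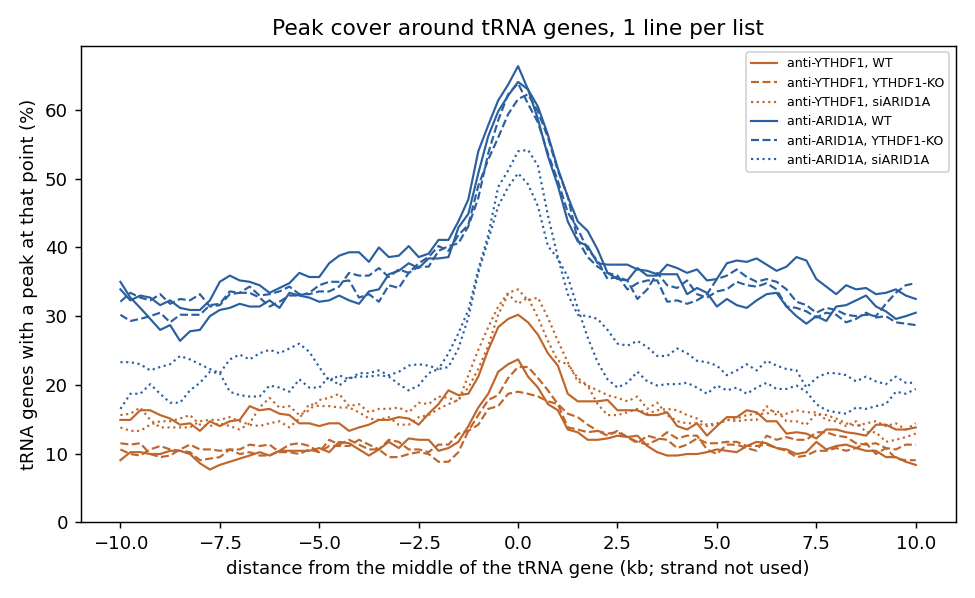
Percent of the 443 tRNA genes with a peak (vertical axis) at each distance from the middle of the gene (horizontal axis, kb, strand not used), with 1 line per list, coloured by antibody and dashed or dotted by condition. All 12 lines are highest at or next to the gene, reaching 19.0% to 33.9% with anti-YTHDF1 and 50.8% to 66.4% with anti-ARID1A at its middle.

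Gene by gene, 78 tRNA genes at 40 separate places were held by all 12 lists (17.6%, against 16.2% of all genes and 4.14% of the other short genes). The list of 78 was also the full list of those held by all 6 anti-YTHDF1 lists. All 6 anti-ARID1A lists held 243 genes. A further 86 were held by none (19.4%, against 31.2% of all genes and 54.5% of the other short genes). More anti-ARID1A than anti-YTHDF1 lists held 270 genes, and 4 genes showed the opposite order. The opposite order rested on 1 more list in each case, at TRA-AGC12-1 and TRA-AGC6-1 on chromosome 6 and at a pair of glycine genes on chromosome 1 whose rows stand out of position order in the gene table. There were 14 such genes, 13 of them on chromosome 1, and their positions may belong to alternate sequences.

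Clusters were formed by chaining tRNA genes of a chromosome at gaps of 500 kb or less, which gave clusters of 5 or more genes holding 322 of the 443 genes. The pair with the most genes, on chromosome 1 and chromosome 6, differed widely.

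The chromosome 1 cluster at 161399700 to 161612029 has 32 genes, many in a tandem repeat of glycine, glutamate, aspartate and leucine tRNA genes. It had the highest median percentile of highest signal of the clusters with both antibodies. Anti-YTHDF1 lists held 25, 25, 26, 27, 27 and 25 of the 32 genes and anti-ARID1A lists 32, 32, 32, 32, 32 and 30 (WT, YTHDF1-KO and siARID1A pairs in that order). Of these, 25 genes were held by all 12 lists, which is a large part of the 78. The median percentile of highest signal was 98.8 to 99.7 in the anti-YTHDF1 lists and 98.5 to 99.3 in the anti-ARID1A lists, or 3.5 to 8.25 and 5.2 to 10.4 times the median of the list. The 10 tRNA genes of highest mean percentile among those held by all 12 lists all came from it, led by TRD-GTC2-4, TRE-CTC1-4, TRG-GCC1-4, TRG-TCC2-4 and TRL-CAG1-4 at 99.2 each, with TRD-GTC2-3, TRE-CTC1-3, TRG-GCC1-2, TRG-GCC1-3 and TRG-TCC2-3 at 99.18. At TRD-GTC2-4 (chromosome 1, 161463034 to 161463105) the highest signal was 7.75 and 6.0 times the list median in WT, 4.0 and 4.75 times in YTHDF1-KO and 7.0 and 8.25 times in siARID1A cells with anti-YTHDF1. With anti-ARID1A it was 8.14 and 10.4, 10.2 and 8.5, and 5.2 and 6.8 times. Genes of 1 repeat unit share peaks, and the whole cluster rested on 3 to 9 peaks in an anti-YTHDF1 list and 8 to 11 in an anti-ARID1A list, so its genes are not separate observations. The 12 other genes within its span were held less often in the same lists, at 8.33% to 41.7% with anti-YTHDF1 and 58.3% to 91.7% with anti-ARID1A.

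The chromosome 6 cluster at 26286526 to 28989083 has 144 genes, the most of any cluster, and few of them were held with anti-YTHDF1. This is the stretch next to the major histocompatibility complex that also holds many histone genes. Anti-YTHDF1 lists held 5 and 7 of its genes in WT, 5 and 6 in YTHDF1-KO and 15 and 19 in siARID1A cells. Anti-ARID1A lists held 70 and 73, 71 and 70, and 49 and 54. The shares were 3.47% to 13.2% with anti-YTHDF1 and 34.0% to 50.7% with anti-ARID1A, against 44.8% to 61.5% and 74.2% to 82.6% for the 299 other tRNA genes. No gene of the cluster was held by all 12 lists, 102 were held by no anti-YTHDF1 list and 48 by none at all. Those that were held had lower peaks than the other tRNA genes that were held. Their median percentile of highest signal was 23.3 to 50.2 with anti-YTHDF1, from 5 to 19 genes per list, and 55.7 to 64.6 with anti-ARID1A. The other tRNA genes had 75.7 to 89.8 and 89.9 to 92.4. The cluster's share was below that of the other tRNA genes in 30 of 30 combinations of a list with another window, threshold, list length or rule of overlap, for each antibody.

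Other genes within the span of the chromosome 6 cluster were also held less often than genes overall. Of these 154 genes, 7.79% to 24.0% were held with anti-YTHDF1 and 34.4% to 44.2% with anti-ARID1A, and peaks covered 0.896% to 2.14% and 3.79% to 9.85% of the span. Along the cluster, divided into steps of 500 kb from its first gene, the anti-ARID1A lists held a median of 66.7% of the 39 tRNA genes of the block at 26286526 to 26780695 and 75% of the 36 at 27290626 to 27753472. Their medians for the other genes of those blocks were 73.1% and 41.2%, so the block with the highest tRNA share was not the one with the highest share of other genes. They held 13.6% of the 22 at 28474552 to 28764463 and 0.0% of the 21 at 28789770 to 28989083, where 18 genes were held by no list, with medians of 31.2% and 0.0% for the other genes. In that last block peaks of any kind were rare, with 0 to 4 per list in both antibodies. The lists also hold peaks on alternate sequences of the histocompatibility region, 183 to 285 with anti-YTHDF1 and 168 to 238 with anti-ARID1A. Whether reads of the tRNA genes were placed there was not tested.

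**Figure D3:**
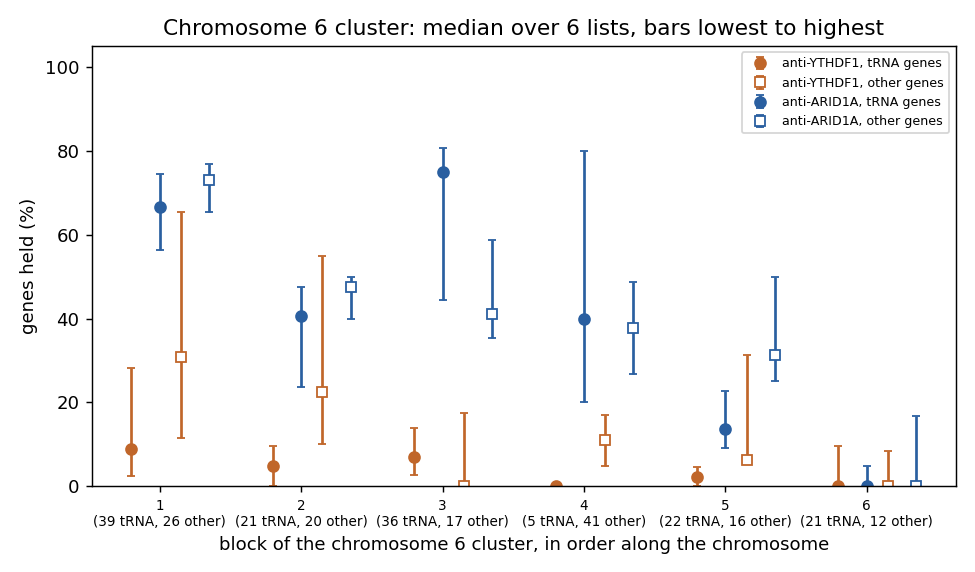
Percent of genes held (vertical axis) in 6 blocks of the chromosome 6 cluster in order along the chromosome (horizontal axis, with the number of tRNA genes and of other genes), as the median over the 6 lists of an antibody with bars from the lowest to the highest list. Filled circles are tRNA genes and open squares the other genes of the block. With anti-ARID1A the tRNA medians are 66.7% in the first block, 75% in the third and 0.0% in the last.

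Several smaller clusters had larger median shares over the 6 anti-YTHDF1 lists than the chromosome 1 cluster of 32 genes, though not larger shares in every list. Both clusters of chromosome 17, at 8119155 to 8227064 (18 genes) and 38751781 to 39154562 (6 genes), the chromosome 16 cluster at 3150674 to 3192060 (14 genes) and the chromosome 5 cluster at 181097070 to 181222467 (17 genes) were held whole by all 6 anti-ARID1A lists. The anti-YTHDF1 lists held 12 to 18, 5 to 6, 9 to 14 and 15 to 17 of their genes. The chromosome 11 cluster (59550629 to 59566452, 8 genes) and the chromosome 12 cluster (124921755 to 124940037, 5 genes) were also held whole by all 6 anti-ARID1A lists, while with anti-YTHDF1 they were more variable. There the chromosome 11 cluster had 4 and 4 genes held in WT, 1 and 4 in YTHDF1-KO and 7 and 8 in siARID1A cells, and the chromosome 12 cluster 2 and 2, 2 and 1, and 4 and 5. In both, the siARID1A lists held more than any other anti-YTHDF1 list. The small cluster on chromosome 1 at 146035692 to 146370174 (5 genes at 2 places) was held whole with anti-ARID1A in all 6 lists. With anti-YTHDF1 its counts were 5 and 4 in WT, 0 and 2 in YTHDF1-KO and 5 and 5 in siARID1A cells.

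A pair of other clusters had smaller median shares than the chromosome 6 cluster of 144 genes with both antibodies. The 6 genes on chromosome 6 at 57800211 to 57856473 were held by no list, and no list had a peak anywhere in that span. Of the 19 genes on chromosome 7 at 149310190 to 149707740, mostly cysteine tRNA genes, the anti-YTHDF1 lists held 0 or 1 and the anti-ARID1A lists 2 to 4. A single gene there, TRC-GCA17-1, was held by all 6 anti-ARID1A lists.

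**Figure D4:**
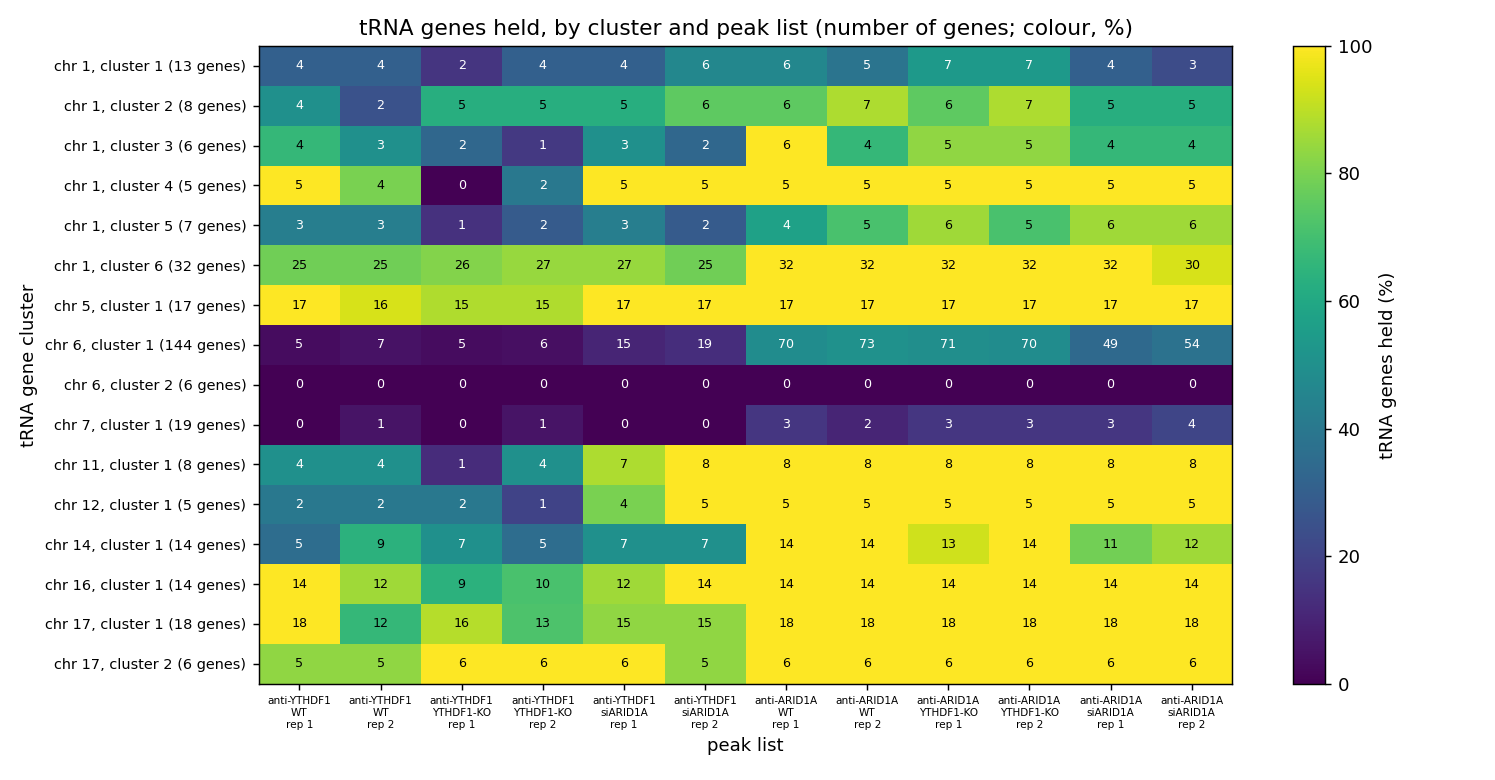
Number of tRNA genes held (figures in the cells) and percent of the cluster (colour, 0 to 100) for each cluster of 5 or more tRNA genes (rows, numbered in order along each chromosome) and each peak list (columns). The chromosome 6 cluster of 144 genes has 5 to 19 genes held with anti-YTHDF1 and 49 to 73 with anti-ARID1A, and the chromosome 1 cluster of 32 genes 25 to 27 and 30 to 32.

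Copies of the same tRNA differed by place. In 57 sets of 2 or more copies with the same mature sequence number, 24 had copies that differed by 6 lists or more, 10 had copies in the same number of lists, and 6 had a copy in all 12 lists and a copy in none. There were 23 sets with copies both in the chromosome 6 cluster (42 copies) and elsewhere (83 copies). In 22 of these the chromosome 6 copies were held by fewer lists on average, and in 1, the alanine set AGC12, by more (1 list against 0). The arginine tRNA of the set ACG2 was held by all 12 lists at TRR-ACG2-1 on chromosome 3, whose sequence is given above, by 2 lists at TRR-ACG2-2 and TRR-ACG2-3 and by 5 at TRR-ACG2-4, all 3 on chromosome 6. The arginine set CCG1 had 12 lists at TRR-CCG1-3 on chromosome 16 and none at TRR-CCG1-1 and TRR-CCG1-2 on chromosome 6. The leucine set AAG2 had 12 lists at TRL-AAG2-4 (chromosome 16), 11 at TRL-AAG2-1 (chromosome 5), 6 at TRL-AAG2-3 (chromosome 14) and 0 at TRL-AAG2-2 (chromosome 6).

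The initiator methionine tRNA, which starts every protein, followed the same division. TRX-CAT1-8 (chromosome 17, 82494721 to 82494792) was held by 12 lists and TRX-CAT1-1 (chromosome 1) by 11. The 6 copies on chromosome 6 were held by 0 to 7 lists, with TRX-CAT1-5 in none. Copies outside the chromosome 6 cluster could differ as well. The asparagine set GTT2, with none there, ranged from 12 lists at TRN-GTT2-5 on chromosome 17 to 0 at TRN-GTT2-8 on chromosome 1.

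By amino acid, alanine, cysteine and phenylalanine genes were held least and proline and aspartate genes most. The median share over the 6 lists was 11.8% with anti-YTHDF1 and 27.6% with anti-ARID1A for the 38 alanine genes, of which 21 were held by no list. It was 17.2% and 34.5% for the 29 cysteine genes, 9.09% and 45.5% for the 11 phenylalanine genes, 70.0% and 97.5% for the 20 proline genes, and 65.4% and 92.3% for the 13 aspartate genes. No proline, glycine, tyrosine or tryptophan gene was held by no list. Glycine and leucine had the most genes in all 12 lists, 12 each.

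These shares differed by place within an amino acid. Of the 38 alanine genes 27 lie in the chromosome 6 cluster, where the median shares were 1.85% and 14.8%, against 36.4% and 63.6% for the other 11. All 6 phenylalanine genes of the cluster were held by no list, while the 5 elsewhere had medians of 20.0% and 100%. For threonine the medians were 0.0% and 44.4% of 9 genes in the cluster and 63.6% and 100% of 11 elsewhere, and for arginine 9.09% and 40.9% of 11 and 70.0% and 100% of 15. For serine they were 11.8% and 73.5% of 17 genes in the cluster and 61.1% and 88.9% of 9 elsewhere. Glutamine went the other way with anti-ARID1A, at 72.2% of 9 genes in the cluster against 65.0% of 10 elsewhere, but not with anti-YTHDF1, at 5.56% against 40%. Isoleucine had 50% in both places with anti-ARID1A, and 3.85% of 13 genes in the cluster against 40% of 10 elsewhere with anti-YTHDF1. Cysteine genes had no copy in the cluster, and their low share went with the chromosome 7 cluster. The genes are few per amino acid and share peaks, and no test was made between amino acids.

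Nearly every kind of tRNA had at least 1 copy with a peak. Of 49 combinations of amino acid and anticodon, 47 had a gene held by all 6 anti-ARID1A lists, the exceptions being isoleucine GAT and tyrosine ATA, and 34 had a gene held by all 12 lists. Of 22 amino acid groups, with initiator methionine and selenocysteine counted apart, 18 had a gene in all 12 lists, and histidine, elongator methionine, phenylalanine and selenocysteine did not. The number in the symbol also went with the share held, but this was not split by place. Many of the genes numbered 10 or more lie in the chromosome 7 cluster and both chromosome 6 clusters described above. Genes of mature sequence numbers 1 to 3 (274 genes) had medians of 46.2% with anti-YTHDF1 and 79.4% with anti-ARID1A, those numbered 4 to 9 (121 genes) 25.2% and 59.9%, and those numbered 10 or more (28 genes) 10.7% and 26.8%.

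The selenocysteine tRNA, which reads a UGA codon, has 2 genes in the table. TRU-TCA2-1 on chromosome 22 was held by no list. TRU-TCA1-1 (chromosome 19, 45478601 to 45478687) was held by all 6 anti-ARID1A lists and by 5 anti-YTHDF1 lists, not by YTHDF1-KO replicate 2. With anti-YTHDF1 its peak was 1.14 to 3.07 kb long and stood 1.0 to 2.5 times the list median in highest signal. With anti-ARID1A the gene lay under a peak of 54.0 and 97.7 kb in WT and of 42.1 and 40.9 kb in YTHDF1-KO cells, whose highest signal was 27.9 to 31.7 times the list median but lay 22.7 to 22.8 kb away. In siARID1A cells the peaks were 2.47 and 15.4 kb long and 2.4 and 4.8 times the list median, with the place of highest signal 0.275 and 8.85 kb from the gene. The peak was thus shorter and lower in both siARID1A lists than in any WT or YTHDF1-KO list, and its height in those 4 lists is not a measurement at the tRNA gene.

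The antibodies were then compared gene by gene over the 6 lists of each, with a two-sided Fisher's exact test whose p-values were adjusted (Benjamini-Hochberg) over the 59098 genes. Those 6 pooled the 3 conditions, with 2 libraries each, and were not replicates of a single condition. Among them were YTHDF1-KO cells with anti-YTHDF1 and siARID1A cells with anti-ARID1A. No gene passed an adjusted p of 0.05, neither among the tRNA genes (0 of 443, 0.0%) nor among all genes (0.0%) or the other short genes (0.0%). With 6 lists against 6 the smallest p of Fisher's exact test is 0.00216, and the smallest adjusted p reached was 0.245. At an unadjusted p under 0.05, 50 tRNA genes were held more often with anti-ARID1A (11.3%, against 3.73% of all genes and 3.0% of the other short genes) and 0 more often with anti-YTHDF1 (0.0%, against 0.0186% of all genes and 0.0% of the other short genes).

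Of these, 18 tRNA genes (4.06%) were held by all 6 anti-ARID1A and no anti-YTHDF1 lists, a pattern shown by 0.88% of all genes and 0.902% of the other short genes. The opposite pattern was shown by 0 tRNA genes (0.0%) and by 0.00508% of all genes and 0.0% of the other short genes. Only genes held by all 6 anti-ARID1A lists could show the first pattern. It was shown by 18 of 243 such tRNA genes, 520 of 21318 among all genes and 59 of 886 other short genes. On that base the tRNA share was above that of all genes and near that of genes of like length. The 18 numbered 8 in lists of equal length and 11 when the place of highest signal had to lie in the window. Of the 18, 12 lie in the chromosome 6 cluster. The 10 of highest percentile were TRG-GCC1-5 on chromosome 21, TRC-GCA17-1 on chromosome 7, TRQ-TTG3-2, TRQ-TTG3-1, TRL-TAA4-1, TRL-CAA2-1, TRQ-CTG6-1 and TRE-CTC1-7 on chromosome 6, and TRG-TCC2-6 and TRL-CAG1-6 at the edge of the chromosome 1 cluster. At TRG-GCC1-5 (chromosome 21, 17454789 to 17454859), a glycine tRNA gene that is the only tRNA gene of its chromosome, the percentile of highest signal was 80.25 and 79.89 in WT, 86.15 and 88.9 in YTHDF1-KO and 92.89 and 93.28 in siARID1A cells. The siARID1A lists had the highest values there, relative to their own peaks. For each of the 10 the p of Fisher's exact test was 0.00216 and the adjusted p 0.245.

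Within a condition, the difference between antibodies was smallest in siARID1A cells. Both anti-ARID1A lists and neither anti-YTHDF1 list held 101 tRNA genes in WT cells (22.8%, against 10.0% of all genes and 8.1% of the other short genes), 117 in YTHDF1-KO cells (26.4%, against 11.2% and 8.93%) and 38 in siARID1A cells (8.58%, against 3.95% and 2.37%). The tRNA shares were thus more than that of all genes in each condition, and both fell together in siARID1A cells. In the opposite direction there were 0 tRNA genes in each condition (0.0%, against 0.257% of all genes and 0.122% of the other short genes in WT, 0.305% and 0.0917% in YTHDF1-KO and 0.819% and 0.459% in siARID1A cells). The anti-ARID1A lists held these kinds of gene unequally. In WT cells they held a mean of 70.1% of tRNA genes, 51.4% of all genes and 27.6% of the other short genes. Of genes held by both WT anti-ARID1A lists, neither WT anti-YTHDF1 list held 101 of 291 tRNA genes and 5931 of 27606 among all genes. Relative to those means, the WT tRNA share of 22.8% was above that of all genes and near that of the other short genes. With 2 libraries against 2 no test was made, since an exact two-sided permutation test cannot give a p below 0.33.

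The conditions were compared within each antibody by the genes held by both lists of a condition and neither of the other. The comparisons with WT share the WT lists. The YTHDF1 gene itself was held by all 12 lists and the ARID1A gene by 11, which says nothing about the proteins, so the knockout and the knockdown were not checked by these data. The target of the anti-YTHDF1 antibody is missing from YTHDF1-KO cells by their label, and 50774 and 46225 peaks were called there, against 57764 and 40562 in WT.

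With anti-YTHDF1, 19 tRNA genes at 14 places were held by both WT and neither YTHDF1-KO list (4.29%, against 1.87% of all genes and 1.16% of the other short genes). The other way there were 7 (1.58%, against 1.38% and 0.504%). Of the genes held by both WT lists, 14.6% of 130 tRNA genes, 7.5% of all genes and 13.9% of the other short genes were held by neither YTHDF1-KO list, so the tRNA share was above that of all genes and near that of genes of like length. Of highest percentile among the 19 were 4 adjacent genes on chromosome 11 under 1 WT peak, TRV-TAC1-1, TRV-TAC2-1, TRR-TCT3-2 and TRL-TAA3-1, whose percentiles in WT were 92.83 and 89.86, and TRP-CGG1-2 on chromosome 16 at 84.92 and 83.6. All 5 were held by both siARID1A anti-YTHDF1 lists and by all 6 anti-ARID1A lists. Called in YTHDF1-KO and not in WT were, first, the serine genes TRS-CGA4-1 (88.94 and 54.37) and TRS-GCT3-1 (28.18 and 86.6), TRK-TTT3-4 on chromosome 11 (88.94 and 23.32), TRS-TGA1-1 (59.99 and 3.13) and TRP-AGG2-6 (28.18 and 23.32). Their percentiles differed widely between the replicates in 4 of the 5.

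With anti-YTHDF1 in siARID1A cells, 16 tRNA genes at 11 places were held by both lists and by neither WT list (3.61%, against 1.94% of all genes and 1.16% of the other short genes), and 4 the other way (0.903%, against 0.985% and 0.703%). Of the genes held by neither WT list, 6.5% of 246 tRNA genes, 3.37% of all genes and 1.43% of the other short genes were held by both siARID1A lists. The gene of highest percentile was TRS-GCT3-1 (chromosome 11, 66348120 to 66348201), a serine tRNA gene, at 96.07 and 81.33. It was followed by the neighbours TRP-AGG2-6 and TRT-TGT3-1 on chromosome 14 under a shared peak (73.03 and 91.7), TRS-CGA4-1 on chromosome 12 (73.03 and 81.33) and TRN-GTT3-1 on chromosome 1 (83.53 and 69.45). TRS-GCT3-1, TRP-AGG2-6, TRT-TGT3-1 and TRS-CGA4-1 are also among those called in both YTHDF1-KO lists, so what sets them apart there is their absence from the shared WT lists. The 4 held only in WT were TRQ-CTG4-1 on chromosome 1 (84.92 and 71.73), TRP-TGG1-1 on chromosome 14, and TRQ-CTG5-1 and TRL-CAA3-1 on chromosome 6. In lists of equal length the siARID1A lists alone held 17 genes (3.84%, against 1.32% of all genes and 0.856% of the other short genes).

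With anti-ARID1A, both WT and neither siARID1A list held 18 tRNA genes (4.06%, against 3.73% of all genes and 3.87% of the other short genes), 9 of them in the chromosome 6 cluster. Of the genes held by both WT lists, these were 6.19% of 291 tRNA genes, against 7.99% of all genes and 17.1% of the other short genes. The 5 of highest percentile were TRN-GTT2-4 on chromosome 13 (75.51 and 81.78), TRV-AAC1-5 (68.38 and 88.83) and TRY-GTA6-1 (63.3 and 74.95) on chromosome 6, TRV-TAC3-1 on chromosome 10 (75.51 and 74.95) and TRY-GTA5-3 on chromosome 14 (68.38 and 71.64). None of the 5 was held by any anti-YTHDF1 list. The opposite pattern was shown by 2 genes (0.451%, against 0.337% of all genes and 0.168% of the other short genes), TRM-CAT4-1 on chromosome 6 and TRN-GTT9-2 on chromosome 1. The direction turned when the place of highest signal had to lie in the window. Then 25 tRNA genes were held by both siARID1A and neither WT list (5.64%, against 1.25% of all genes and 1.61% of the other short genes) and 15 the other way (3.39%, against 3.08% and 1.77%).

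With anti-ARID1A, both WT and neither YTHDF1-KO list held 4 tRNA genes (0.903%, against 1.18% of all genes and 1.36% of the other short genes) and both YTHDF1-KO and neither WT list 5 (1.13%, against 1.15% and 0.81%), all 9 of them in the chromosome 6 cluster. The 4 were 1.37% of the 291 tRNA genes held by both WT lists, against 2.52% of all genes and 6.03% of the other short genes so held. The 4 held in WT were TRS-GCT1-1, TRR-ACG2-2, TRR-ACG2-3 and TRA-AGC3-1, and the same 4 were absent from both siARID1A lists too, with the WT lists shared. The 5 held in YTHDF1-KO cells were TRG-GCC2-3 and TRX-CAT1-7 under a shared peak, TRQ-TTG2-1, TRS-AGA3-1 and TRK-TTT9-1. In this comparison 271 tRNA genes were held by all 4 lists and 93 by none.

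**Figure D5:**
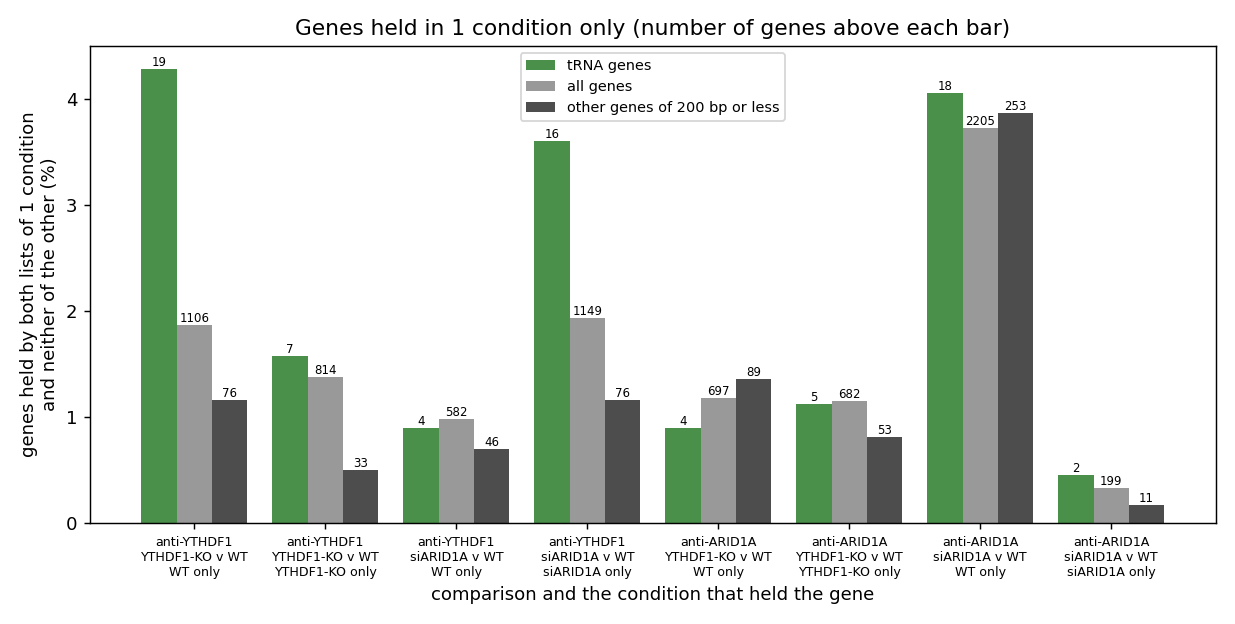
Percent of genes (vertical axis) held by both lists of 1 condition and neither of the other, for tRNA genes, all genes and other genes of 200 bp or less, in each comparison with WT and direction (horizontal axis), with the number of genes above each bar. The tRNA bars stand above the others for anti-YTHDF1 at 4.29% (WT only against YTHDF1-KO) and 3.61% (siARID1A only), and near them for anti-ARID1A.

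Peak height within the lists gave a second view that needs no change of call. For each gene held by all 6 lists of an antibody, the highest signal of its peak was divided by the median of its list, and the mean of a condition was compared with that of WT. With anti-YTHDF1 in YTHDF1-KO cells, 66 of 78 tRNA genes were lower than in WT, with a median log2 ratio of -0.58, against -0.3 over all genes and -0.38 over the other short genes. In siARID1A cells 66 of the 78 were higher, with a median of 0.23 against 0.05 over all genes and 0.05 over the other short genes. With 1 value per place the medians over the 40 places were -0.49 and 0.24. These values depended on the WT replicates. Without WT replicate 1 the YTHDF1-KO median was -0.29 against 0.0 over all genes, and without WT replicate 2 it was -0.77 against -0.49. The siARID1A medians were then 0.41 against 0.32 over all genes and 0.02 against -0.13. Without WT replicate 2 the direction in siARID1A cells was also gone over the 40 places, with a median of -0.02, 21 places lower and 19 higher.

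With anti-ARID1A, peaks at tRNA genes were lower in siARID1A than in WT cells at 217 of 243 genes, with a median log2 ratio of -0.51. That was no more than over all genes, at -0.57, or over the other short genes, at -0.67. In YTHDF1-KO cells the median was -0.02, against -0.05 over all genes. These are ratios relative to each list's own peaks and not levels, and no test was made on them. The height is that of the whole peak, whose highest signal lay over the gene in 6.62% to 9.96% of genes held with anti-ARID1A. Those peaks were also longer in WT cells, with medians of 3721 and 3638 bp, than in siARID1A cells, at 2229 and 2215 bp.

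The machinery around tRNA genes is encoded by genes transcribed by RNA polymerase II, and protein-coding genes are held often in these lists, at 57.4% to 67.2% with anti-YTHDF1 and 74.7% to 82.3% with anti-ARID1A. All 18 genes of RNA polymerase III subunits, 17 of its initiation factors and regulator and 20 cytosolic aminoacyl-tRNA synthetases were held by at least 1 list. All 6 anti-ARID1A lists held 16, 15 and 18 of them, and all 12 lists 7, 5 and 5. In percent these were 88.9%, 88.2% and 90.0% in all 6 anti-ARID1A lists, against 68.3% of the 19974 protein-coding genes, and 38.9%, 29.4% and 25% in all 12, against 35.0%. POLR2K, a small subunit shared by the polymerases, was held by no anti-YTHDF1 list and by 5 anti-ARID1A lists. POLR3B, which encodes the second-largest subunit, was held with anti-YTHDF1 by both siARID1A and neither WT list, and BDP1, a TFIIIB subunit, and SNAPC1, a subunit of the complex that starts small nuclear RNA genes, by both WT and neither YTHDF1-KO list, patterns shown by 2.71% and 2.58% of protein-coding genes. GTF3C3, a TFIIIC subunit, was held with anti-ARID1A by both WT lists and by no YTHDF1-KO or siARID1A list. GTF3C6, another TFIIIC subunit, was held with anti-ARID1A by both WT and neither siARID1A list. Of protein-coding genes 0.731% and 2.52% were held with anti-ARID1A by both WT lists and by neither YTHDF1-KO or neither siARID1A list.

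Of 37 other short genes that RNA polymerase III transcribes, all were held by at least 1 list, 36 (97.3%) by all 6 anti-ARID1A lists and 19 (51.4%) by all 12. The same shares were 54.9% and 17.6% of tRNA genes, 36.1% and 16.2% of all genes, and 13.5% and 4.14% of the other genes of 200 bp or less. No test was made between these groups. RMRP and RPPH1, the RNA components of the nucleases RNase MRP and RNase P, the latter of which trims the 5′ end of tRNA precursors, were held by all 12 lists. RN7SK, which holds back transcription elongation by RNA polymerase II, was held by 11, and RN7SL1 and RN7SL2, the RNAs of the signal recognition particle, by 10 and 11. These lists and the members above were chosen with earlier results of these data known.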

How the data were processed

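The authors deposited 1 SEACR peak list per library. Per the file contents each line gives a position, the total signal, the highest signal and its place, and the deposited signal is coverage on a scale that no source used here states, so it was used only within a list, as a percentile or relative to the list's median. The submitters' processing notes name SEACR 1.3, deepTools 3.5.2, bedtools 2.30.0, SAMtools 1.9, fastp 0.23.2 and Bowtie2 2.4.2, with hg38 (GRCh38) as the build. Tool settings, and whether IgG entered peak calling, are not stated by any source used here. Depth is unknown.

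Gene positions, 1-based, and sequences came from RefSeq tables of GRCh38.p14, which give no strand for genes. An overlap of 1 bp counted. Fisher's exact test per gene (scipy 1.17.1) had its p-values adjusted (Benjamini-Hochberg) across the whole gene table, and overlap and test code was tested on simulated data. Where several peaks overlapped a window the tallest gave the percentile. Genes named were the selenocysteine genes, the 10 of highest mean percentile held by all lists, at most 5 per pattern and the 10 of lowest p, with ties broken by percentile. The sequences and sets of copies shown, the mitochondrial genes and the 4 genes of opposite order were chosen after their values were seen. Members, lists and tests were chosen with earlier results of these data known.

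Replicate numbers were not used to pair the libraries in the main test. Deviations of same-numbered libraries had correlations of -0.013 to 0.01 over 15 pairs of groups. With 2 libraries a group, this cannot tell whether same-numbered libraries shared a culture or batch. Alternatives were other windows, thresholds, list lengths and overlap rules, leaving out libraries, and stratified tests.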

Additional observations from a re-analysis of the deposited data

Results flagged for a closer look

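The share of tRNA genes held moved in opposite directions with the 2 antibodies in siARID1A cells. It was 8.13 percentage points above WT with anti-YTHDF1 and changed by -8.13 points with anti-ARID1A, and every siARID1A library lay on its side of both WT libraries. The difference between the antibodies was not tested. With anti-ARID1A the shares in WT and siARID1A cells were 58.1% and 56.3% in lists of equal length, and 48.0% and 49.3% with the place of highest signal inside the window, where the direction turned. Over all genes the means were 33.7% and 37.2% with anti-YTHDF1 and 51.4% and 43.9% with anti-ARID1A in WT and siARID1A cells, the same directions.

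Outside the members, all 22 mitochondrial tRNA genes lay under a peak in every list. Each list has 1 peak there, which covers the mitochondrial genome, so these genes carry no separate information, and no control library was analysed to set a background.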

How the results depend on the processing

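The order of the antibodies and the low share of the chromosome 6 cluster held under every alternative window, threshold, list length and overlap rule tried, while counts of single patterns moved, many resting on fewer than 10 genes. Depth is unknown and sets what a list can hold. With 2 libraries a group, no pattern between conditions has a test.

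The shares of tRNA genes held (WT, YTHDF1-KO, siARID1A) became 28.3%, 22.1% and 34.7% with anti-YTHDF1 and 65.9%, 64.2% and 54.2% with anti-ARID1A over the gene without flanks. They were 42.8%, 40.3% and 51.8%, and 74.5%, 74.3% and 66.6%, with 3 kb flanks. With only the peaks above each list's median they were 29.8%, 26.3% and 38.4%, and 62.0%, 61.4% and 55.0%. In lists of equal length they were 30.4% in YTHDF1-KO and 41.8% in siARID1A cells with anti-YTHDF1, and 58.1%, 56.7% and 56.3% with anti-ARID1A. With the place of highest signal inside the window they were 27.5%, 25.2% and 33.3%, and 48.0%, 49.1% and 49.3%, so the lower anti-ARID1A share of siARID1A cells was not seen there. Without genes near a protein-coding gene they were 32.2%, 27.5% and 39.5%, and 65.9%, 66.4% and 56.9%. Without the genes out of position order the anti-ARID1A share in siARID1A cells was 63.2%. Leaving out 1 library gave 35.2% to 38.6%, 31.6% to 32.3% and 44.2% to 45.8% with anti-YTHDF1, and 69.3% to 70.9%, 69.1% to 71.6% and 61.2% to 62.8% with anti-ARID1A.

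The 18 genes held by all 6 anti-ARID1A and no anti-YTHDF1 lists were 8 in lists of equal length, 11 with the place of highest signal inside the window and 18 to 27 without 1 library. Fisher's exact test called 0 genes without any 1 library, and 18 when adjusted only over genes held by exactly 6 lists, a choice made after seeing the data that takes in few genes. With the replicate number as a block the test called 0 genes, with 50 at an unadjusted p under 0.05. The main Fisher's exact test also called 0 genes, at a smallest adjusted p of 0.245. Blocking or leaving out a library thus had no call to remove, and the unchanged 0 is no sign of stability.

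With anti-YTHDF1, the 19 genes of WT against YTHDF1-KO were 12 with peaks above the median and 33 to 36 without 1 library. The 7 of YTHDF1-KO were 3 without flanks, 3 above the median, 4 in equal lists, 12 with the highest signal inside, 4 without genes near a protein-coding gene and 9 to 23 without 1 library. The 4 of WT against siARID1A were 7 with 3 kb flanks, 1 above the median, 2 in equal lists, 7 with the highest signal inside and 8 to 13 without 1 library. The 16 of siARID1A were 28 to 42 without 1 library. With anti-ARID1A, the 4 of WT against YTHDF1-KO were 9 without flanks and 9 to 15 without 1 library. The 5 of YTHDF1-KO were 3 with 3 kb flanks, 3 above the median, 2 in equal lists, 9 with the highest signal inside and 11 to 13 without 1 library. The 18 of WT against siARID1A were 11 in equal lists and 25 to 35 without 1 library. The 2 of siARID1A were 0 without flanks, 0 above the median, 4 in equal lists, 25 with the highest signal inside and 3 to 7 without 1 library. Leaving out a library loosens the pattern by its construction. Other causes were not tested.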
